A study of Homo sapiens with 3 samples.

Results

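The aldehyde dehydrogenases described here were 10 genes, chosen by name: ALDH2, ALDH1A3, ALDH1B1, ALDH3A2, ALDH3B2, ALDH4A1, ALDH6A1, ALDH7A1, ALDH9A1 and ALDH18A1. All 10 symbols were found among the 22499 named rows of the count tables, and 9 other genes of the family, which has 19 in all, were looked at beside them. The set was built around ALDH2, which had been noticed for its low level in cocultured sensitive cells, so that difference is given as a description. The other 9 members were listed with those results known.

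Aldehyde dehydrogenases are enzymes that use NAD+ or NADP+ to oxidise reactive aldehydes to acids. The aldehydes come from ethanol, lipid peroxidation, amino acid breakdown, vitamin A and biogenic amines. In breast tumors the family is best known through ALDEFLUOR activity, which marks cells with stem-like properties and to which ALDH1A1 and ALDH1A3 contribute.

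The cells were CAMA-1, an established line of estrogen receptor-positive (ER+) breast cancer. A sensitive lineage carried the fluorescent transgene mVenus, and a resistant lineage, grown for months with the CDK4/6 inhibitor ribociclib, carried mCherry. Spheroids of 2000 plated cells held 100% sensitive cells (sensitive monoculture), 50% of each lineage (coculture) or 100% resistant cells (resistant monoculture), and all were given 1 µM ribociclib for 11 days. No library of untreated cells was analysed here, and each lineage is 1 derivative of 1 line. Each condition was 1 library of single-cell 3' RNA-seq, which counts captured RNA molecules as UMIs (unique molecular identifiers).

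The deposited annotation split the kept cells into 4 populations: 3329 cells of sensitive monoculture, 2059 sensitive and 6292 resistant cells of the coculture, and 7557 cells of resistant monoculture. Their summed depth was 70896822 to 270891547 UMIs. A UMI of the lineage's own transgene was found in 100% of the cells of both coculture populations. In the monocultures it was found in 67.8% of sensitive and 72.9% of resistant cells, so kept cells differed in this between the cultures. Levels are given as CPM, a gene's UMIs scaled by the total UMIs of the population, with 95% exact Poisson intervals that cover counting error only. With 1 library per condition there was no test across samples, and a difference between libraries cannot be told apart from the difference between conditions. Ratios carry exact binomial intervals of the same kind, and a gene was called past 2-fold on log2(CPM + 1) where the compared populations held at least 50 of its UMIs. Luminal markers were above 1 CPM for 8 of 8 genes in every population, and the basal, fibroblast, blood and endothelial lists summed to 0.0664 to 3.65 CPM each. The populations differed in the annotated share of G1 cells, which was 89.0% in sensitive monoculture, 55.3% and 49.7% in cocultured sensitive and resistant cells, and 50.0% in resistant monoculture. Median mitochondrial shares were 20.9%, 17.3%, 15.2% and 15.4% in that order. Pairs of libraries shared 7 to 17 barcodes among annotated cells.

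ALDH2, the mitochondrial enzyme that clears acetaldehyde and lipid peroxidation aldehydes, was the member with the most UMIs in all 4 populations, though in cocultured sensitive cells its interval overlapped that of ALDH9A1. It lies on chromosome 12 (GRCh37 chr12:112204691-112255336, plus strand). ALDH2 stood at 142 CPM in sensitive monoculture (139.7 to 144.5), 115 CPM in resistant monoculture (114 to 117), 82.9 CPM in cocultured resistant cells (81.6 to 84.2) and 56.4 CPM in cocultured sensitive cells (54.6 to 58.2). No intervals of these 4 populations overlapped, and the order ran from sensitive cells grown alone at the top to sensitive cells grown with resistant cells at the bottom. Cocultured sensitive cells held 0.397 of the level of sensitive monoculture (0.383 to 0.411). In resistant cells, the coculture level was 0.719 of the monoculture level (0.706 to 0.733). Within the coculture library, where both lineages shared 1 preparation, resistant cells held 1.47 times the level of sensitive cells (1.42 to 1.52).

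Resistant-cell RNA in sensitive barcodes was estimated through mCherry in 1263 coculture barcodes with at least 2 mVenus UMIs, of which 136 held 186 mCherry UMIs, which put resistant-cell RNA at 7.57% of their UMIs. Those 136 barcodes were not among the annotated sensitive cells, which hold 0 mCherry UMIs, and free RNA and doublets cannot be told apart in them. Taking that share out all the same put ALDH2 in cocultured sensitive cells at 54.2 CPM, slightly below the uncorrected value. The G1 cells alone gave the same order, with ALDH2 at 147, 123, 92.1 and 62.1 CPM. The ratio of coculture to monoculture in G1 cells was 0.421 (0.403 to 0.440) for sensitive and 0.747 (0.728 to 0.767) for resistant cells.

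Among individual cells, ALDH2 had at least 1 UMI in 91.7% of sensitive monoculture, 79.2% of cocultured sensitive cells, 86.7% of cocultured resistant cells and 93.5% of resistant monoculture. The populations differed in depth, with medians of 27622, 34056, 30686 and 35443 UMIs per cell. After each cell was thinned to 5000 UMIs, with 0 cells left out, the shares were 47.7% (46.0% to 49.4%), 23.9% (22.1% to 25.8%), 33.0% (31.8% to 34.2%) and 42.4% (41.3% to 43.6%). Thinned shares thus stood in the order of the CPM values. No population here should lack ALDH2, so the share that free RNA alone gives it was not measured.

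**Figure D1:**
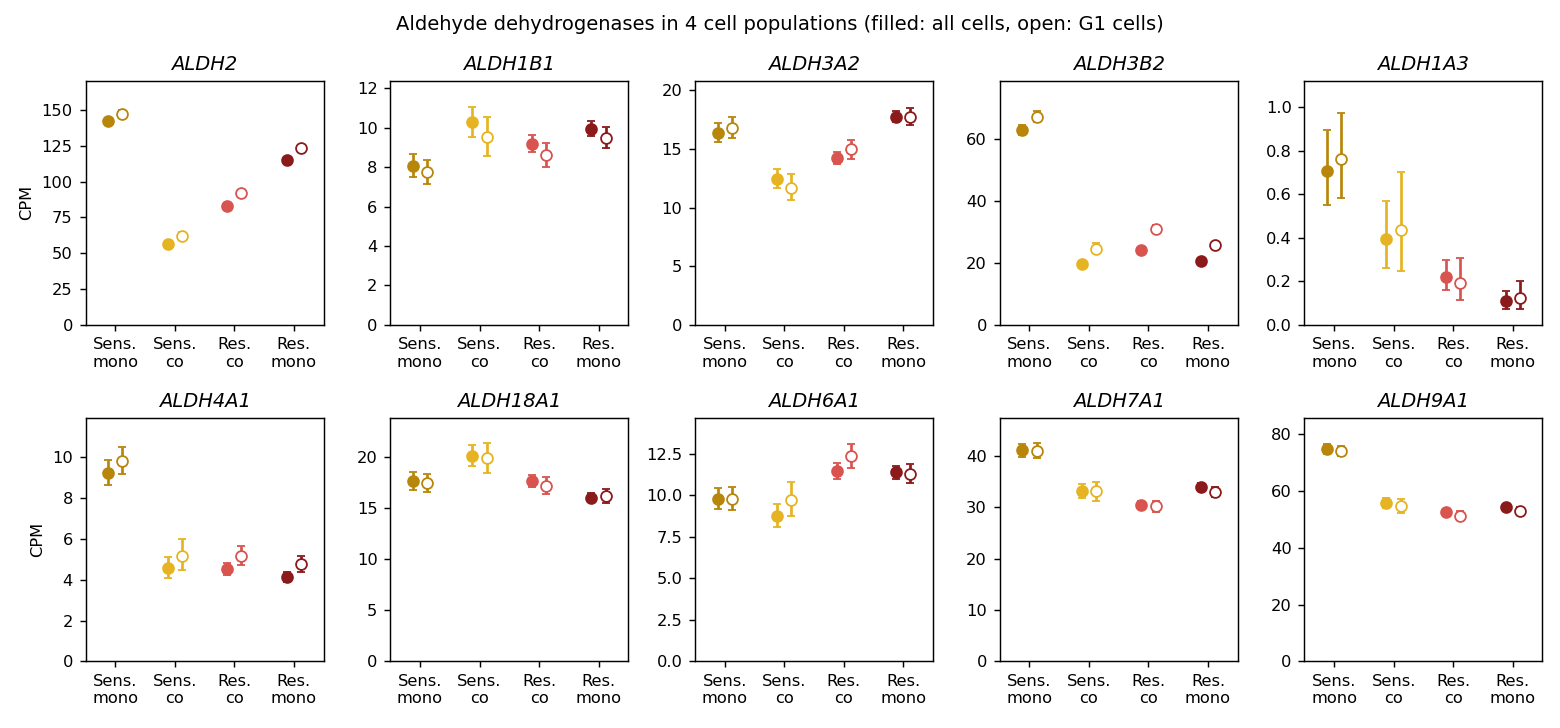
Levels of the 10 aldehyde dehydrogenases in CPM (y axis, from 0, own scale in each panel) in sensitive monoculture, cocultured sensitive cells, cocultured resistant cells and resistant monoculture (x axis); filled points are all cells, open points G1 cells, bars 95% Poisson intervals. ALDH2 is lowest in cocultured sensitive cells at 56.4 CPM, while ALDH3B2 and ALDH4A1 are high in sensitive monoculture and low in the other 3 populations.

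ALDH1B1 and ALDH3A2 are mitochondrial and membrane-bound enzymes of aldehyde clearance. ALDH1B1, the mitochondrial enzyme closest to ALDH2 in sequence, stood at 8.07 CPM in sensitive monoculture (7.51 to 8.66) and 10.3 CPM in cocultured sensitive cells (9.55 to 11.1). In cocultured resistant cells and resistant monoculture it stood at 9.20 CPM (8.78 to 9.63) and 9.94 CPM (9.57 to 10.3). Its lowest level was thus in the population where ALDH2 was highest, and cocultured sensitive cells held 1.27 times the monoculture level (1.15 to 1.41), a difference not seen within clusters as described further on. ALDH3A2, the membrane-bound fatty aldehyde dehydrogenase that is deficient in Sjögren-Larsson syndrome, stood at 16.4, 12.5, 14.2 and 17.8 CPM in the same order of populations. It was lower in coculture in both lineages, at 0.760 of the monoculture level in sensitive cells (0.699 to 0.826) and 0.80 in resistant cells (0.763 to 0.838). The difference in sensitive cells was not seen in S cells, at 14.1 CPM in coculture and 13.9 CPM in monoculture. In G2M cells the intervals overlapped, at 12.5 CPM (10.9 to 14.3) in coculture and 13.8 CPM (11.1 to 16.8) in monoculture. Within sensitive clusters the intervals of the ratio included 1, as described further on.

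ALDH3B2, of a subfamily that oxidises medium- and long-chain fatty aldehydes, had a different pattern. It lies on chromosome 11 (GRCh37 chr11:67429626-67448695, minus strand). Its level was 62.8 CPM in sensitive monoculture (61.2 to 64.4), 19.5 CPM in cocultured sensitive cells (18.5 to 20.6), 24.0 CPM in cocultured resistant cells (23.4 to 24.7) and 20.4 CPM in resistant monoculture (19.9 to 20.9). Sensitive monoculture thus stood apart from the other 3 populations, which lay within 5 CPM of each other, and the intervals of cocultured sensitive cells and resistant monoculture overlapped. Cocultured sensitive cells held 0.311 of the monoculture level (0.293 to 0.329), and resistant monoculture 0.325 (0.313 to 0.337). In resistant cells the coculture level was instead 1.18 times the monoculture level (1.13 to 1.23). After thinning, 26.8% of sensitive monoculture cells held an ALDH3B2 UMI (unthinned 70.7%), against 9.13% of cocultured sensitive cells (unthinned 38.8%). The median mitochondrial share was also highest in sensitive monoculture (20.9%), and the basal marker list summed to 3.65 CPM there, with 1 of 3 genes above 1 CPM, against 0.607, 0.771 and 0.233 CPM in the other populations in the order used above. The part of either in the level of ALDH3B2 was not tested. Its close relative in sequence, ALDH3B1, was at 0.0727, 0.240, 0.376 and 0.417 CPM in the 4 populations, lowest where ALDH3B2 was highest, and how reads that fit both were counted was not given in the sources used here.

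ALDH4A1 and ALDH18A1 act at opposite ends of proline metabolism. ALDH4A1 oxidises glutamate semialdehyde in mitochondria in the last step of proline breakdown, and ALDH18A1, pyrroline-5-carboxylate synthase, makes it from glutamate. RefSeq promoter sequences (GRCh38.p14) were at hand for 8 of the 10 members. The 250 bases before the starts of these 2 genes are shown because their levels differed in opposite directions between cocultured and monocultured sensitive cells. The lines are written 5′ to 3′ on the gene's own strand, which is the minus strand for both. For ALDH4A1, capitals mark GGTCA or TGACC, the same letters read on the other strand and the core unit of estrogen receptor elements. For ALDH18A1, capitals mark ACGTG or CACGT, again both strands, with overlapping matches such as CACGTG joined.
ALDH4A1, chr1:18902556-18902805: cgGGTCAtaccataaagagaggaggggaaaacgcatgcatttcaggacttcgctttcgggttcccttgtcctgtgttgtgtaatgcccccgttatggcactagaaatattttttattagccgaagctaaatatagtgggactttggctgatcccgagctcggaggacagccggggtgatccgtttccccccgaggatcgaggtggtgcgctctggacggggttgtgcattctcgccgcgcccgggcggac
ALDH4A1, inner start, chr1:18890892-18891141: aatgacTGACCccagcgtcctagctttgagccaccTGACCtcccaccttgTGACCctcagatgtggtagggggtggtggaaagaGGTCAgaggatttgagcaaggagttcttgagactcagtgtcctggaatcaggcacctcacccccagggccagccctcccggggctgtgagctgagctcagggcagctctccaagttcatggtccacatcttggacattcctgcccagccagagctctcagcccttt
ALDH18A1, chr10:95656712-95656961: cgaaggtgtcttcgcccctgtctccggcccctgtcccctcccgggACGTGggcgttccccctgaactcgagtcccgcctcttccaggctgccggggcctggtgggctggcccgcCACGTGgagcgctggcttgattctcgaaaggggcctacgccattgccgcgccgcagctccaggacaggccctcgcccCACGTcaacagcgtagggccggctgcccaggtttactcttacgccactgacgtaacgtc
The outer ALDH4A1 window held 1 GGTCA or TGACC match and the inner window 4, while 32.6% of 35116 promoter windows of this length held at least 1. The ALDH18A1 window held 3 runs of ACGTG or CACGT, letters found at least 1 time in 18.5% of windows. The shares of windows with as many matches as the inner ALDH4A1 window or the ALDH18A1 window were not computed. No window of the other members or of ALDH18A1 held GGTCA or TGACC, both ALDH4A1 windows had 0 runs of ACGTG or CACGT, and ALDH1B1 and ALDH3A2 each had a window with 1 run. The letters marked were picked after matches to a few motifs had been counted, so a different motif is shown for each gene. The 3' libraries do not show which start was used, and a match is a description of letters only.

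ALDH4A1 stood at 9.24 CPM in sensitive monoculture (8.64 to 9.86), 4.58 CPM in cocultured sensitive cells (4.10 to 5.11), 4.51 CPM in cocultured resistant cells (4.22 to 4.81) and 4.13 CPM in resistant monoculture (3.89 to 4.38). As for ALDH3B2, sensitive monoculture was high, and the other 3 populations were close, with intervals that overlapped between cocultured sensitive and both resistant populations. Its ratio was 0.496 (0.436 to 0.564) between cocultured and monocultured sensitive cells and 0.447 (0.409 to 0.489) between the monocultures. Within clusters the first of these differences was smaller or not seen, as described further on. ALDH18A1 stood at 17.7 CPM in sensitive monoculture (16.8 to 18.5), 20.2 CPM in cocultured sensitive cells (19.1 to 21.2), 17.7 CPM in cocultured resistant cells (17.1 to 18.3) and 16.0 CPM in resistant monoculture (15.6 to 16.5). The coculture level was slightly higher in both lineages, 1.14 times in sensitive cells (1.06 to 1.23) and 1.1 times in resistant cells (1.05 to 1.15).

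Of the proline and glutamate-semialdehyde list, 10 of 12 genes had enough UMIs and 0 were past 2-fold in any of the 4 comparisons. By that rule 0% to 4.11% of all genes were lower and 0.038% to 2.17% higher, depending on the comparison, so a count of 0 is near the share of all genes. PRODH, proline dehydrogenase, which acts just before ALDH4A1, stood at 37.3 CPM in sensitive monoculture, 25.9 CPM and 22.1 CPM in cocultured sensitive and resistant cells, and 18.9 CPM in resistant monoculture. PYCR1, a pyrroline-5-carboxylate reductase that acts after ALDH18A1 in proline synthesis, stood at 76.0, 91.0, 94.8 and 109 CPM in the same order. The 10 genes split evenly in direction, 5 higher and 5 lower, between cocultured and monocultured sensitive cells (median log2 ratio 0.11) and between the monocultures (-0.04). Of all genes, 43.6% and 42.2% were higher in these comparisons. PRODH and PYCR1 are named as the steps next to these members and were chosen after their values were seen.

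Between cocultured and monocultured sensitive cells, the members of amino acid and amine breakdown differed less than ALDH2, ALDH3B2 and ALDH4A1. ALDH7A1, which oxidises aminoadipate semialdehyde in lysine breakdown, stood at 41.1 CPM in sensitive monoculture (39.8 to 42.4), 33.1 CPM in cocultured sensitive cells (31.8 to 34.5), 30.5 CPM in cocultured resistant cells (29.7 to 31.3) and 34.0 CPM in resistant monoculture (33.4 to 34.8). ALDH9A1, which oxidises trimethylaminobutyraldehyde in carnitine synthesis, stood at 74.9 CPM (73.2 to 76.7), 55.7 CPM (54.0 to 57.5), 52.5 CPM (51.5 to 53.5) and 54.3 CPM (53.4 to 55.2). Both were highest in sensitive monoculture, and the intervals of cocultured sensitive cells and resistant monoculture overlapped for each. ALDH6A1, the methylmalonate semialdehyde dehydrogenase of valine breakdown, stood at 9.79, 8.76, 11.4 and 11.4 CPM and was the member with its 2 highest levels in the 2 resistant populations. Within the coculture library it was 1.31 times as high in resistant as in sensitive cells (1.2 to 1.43).

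ALDH1A3, which makes retinoic acid from retinal, was close to absent. It had 68 UMIs in sensitive monoculture, 28 in cocultured sensitive cells, 44 in cocultured resistant cells and 29 in resistant monoculture, or 0.707, 0.395, 0.220 and 0.107 CPM. The order ran from sensitive monoculture down to resistant monoculture, with a ratio of 0.152 between the monocultures (0.0946 to 0.237), and intervals of neighbouring populations touched or overlapped except between cocultured resistant cells and resistant monoculture. Cells with an ALDH1A3 UMI after thinning were 0.451% to 0.0397% of a population, too few cells for a difference to be read. Of the retinoid list, 13 to 15 of 20 genes had enough UMIs by comparison, and 0 were past 2-fold. By the same rule 0% to 4.11% of all genes were lower and 0.038% to 2.17% higher, so this count is near the share of all genes.

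Compared between cocultured and monocultured sensitive cells, 2 of 10 members were past 2-fold and both were lower, against 1.04% of 12327 genes lower and 1.53% higher by that rule. These were ALDH2 (log2 ratio -1.32), around which the set was chosen, and ALDH3B2 (-1.64). Only 23 genes had a lower log2 ratio than ALDH3B2 and 48 a lower one than ALDH2. The counting interval lay below 1 for 8 members, where 40.6% of all genes had one, and above 1 for ALDH1B1 and ALDH18A1, where 29.4% of all genes had one. The members' median log2 ratio was -0.34 and that of all genes -0.05. In G1 cells the log2 ratios of ALDH2, ALDH3B2 and ALDH4A1 were -1.23, -1.41 and -0.81.

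In the comparison of cocultured with monocultured resistant cells, 0 of 10 members were past 2-fold, a size reached in the lower direction by 0% of 13156 genes and in the higher by 0.038%. ALDH2 had the lowest log2 ratio of the members at -0.47, and 24 of the 13156 genes had a lower one. ALDH3A2 followed at -0.30. The interval of the ratio lay below 1 for 5 members (27.2% of all genes) and above 1 for 3 (36.9%), and the median of the members was -0.02 beside 0.03 for all genes. The coculture populations of both lineages came from 1 library. A shift of that library would move both coculture ratios, so the same direction in both lineages is not an independent repeat.

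Between the monocultures, 1 of 10 members, ALDH3B2, was past 2-fold lower in resistant cells, with a log2 ratio of -1.58, against 4.11% of 12970 genes lower and 2.17% higher by that rule. ALDH4A1 lay at the threshold, at -0.996 with the pseudocount and just short of it, and its call turned under the alternatives given in the closing section. ALDH2 differed by -0.30, and the members' median was -0.28 beside -0.07 for all genes. The interval of the ratio was below 1 for 7 members (47.4% of all genes) and above 1 for ALDH1B1, ALDH3A2 and ALDH6A1 (32.2%).

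Within the coculture library, 0 of 10 members were past 2-fold between the lineages, against 0.462% of 12774 genes higher and 1.30% lower in resistant cells. ALDH2 had the largest log2 ratio of the members at 0.55, and 318 genes had a higher one. Its low level in cocultured sensitive cells, for which it was noticed, enters this ratio, so its place is a description. ALDH6A1 (0.35) and ALDH3B2 (0.29) followed. The interval was above 1 for 4 members (30.6% of all genes) and below 1 for 5 (31.1%), and the members' median was -0.05 beside 0.00 for all genes.

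**Figure D2:**
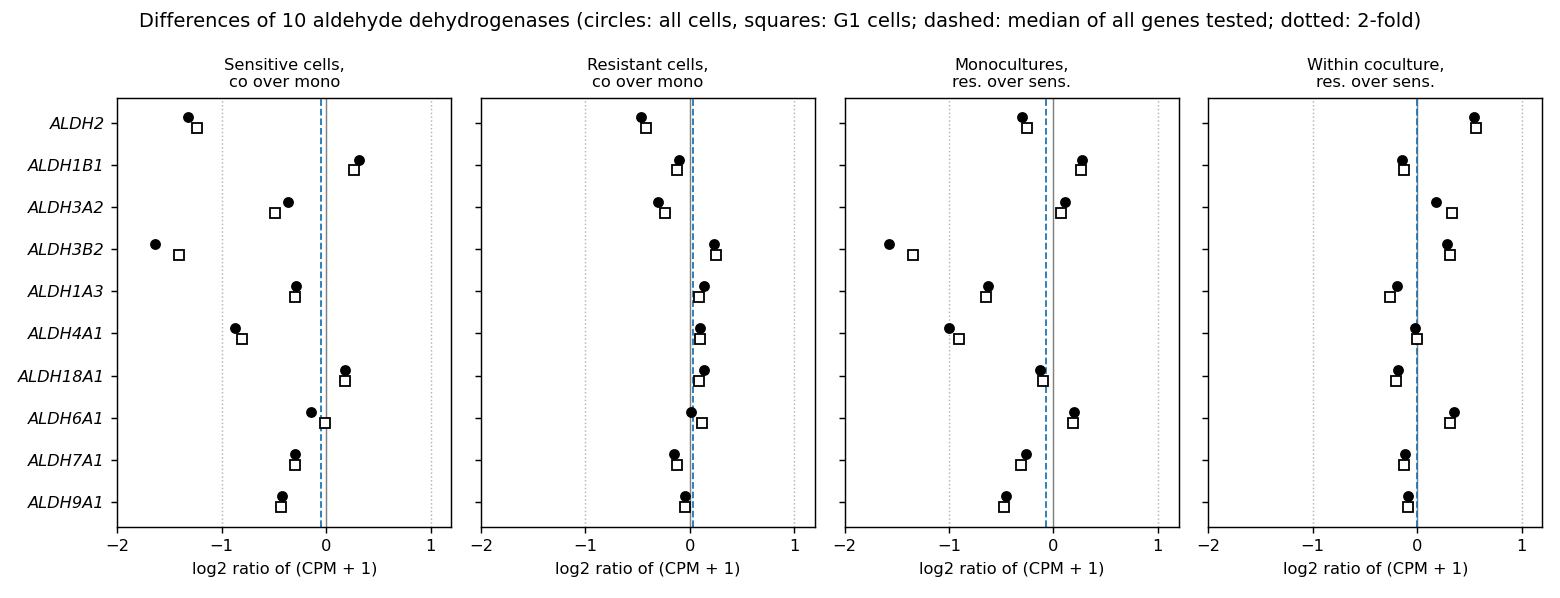
Log2 ratios of CPM + 1 (x axis) of the 10 members (rows) in the 4 comparisons (panels); circles are all cells, squares G1 cells, the dashed line the median of all genes tested and the dotted lines 2-fold. ALDH2 lies left of 0 in both comparisons of coculture with monoculture (-1.32 and -0.47), and ALDH3B2 lies at -1.64 in the first and 0.23 in the second.

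The family's make-up moved with these genes. Summed over all 19 aldehyde dehydrogenase genes, UMIs came to 421 CPM in sensitive monoculture, 256 CPM in cocultured sensitive cells, 282 CPM in cocultured resistant cells and 322 CPM in resistant monoculture. The 10 members made up 86.5% to 91.0% of that sum. ALDH2 accounted for 33.8% of the family's UMIs in sensitive monoculture (33.3% to 34.2%) and 22.0% in cocultured sensitive cells, 29.3% in cocultured resistant cells and 35.8% in resistant monoculture. ALDH3B2 accounted for 14.9%, 7.62%, 8.51% and 6.33%. These are shares of captured 3' ends, counted once per molecule and without scaling for gene length. In cocultured sensitive cells ALDH9A1, at 21.8% of the UMIs, was nearly level with ALDH2.

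**Figure D3:**
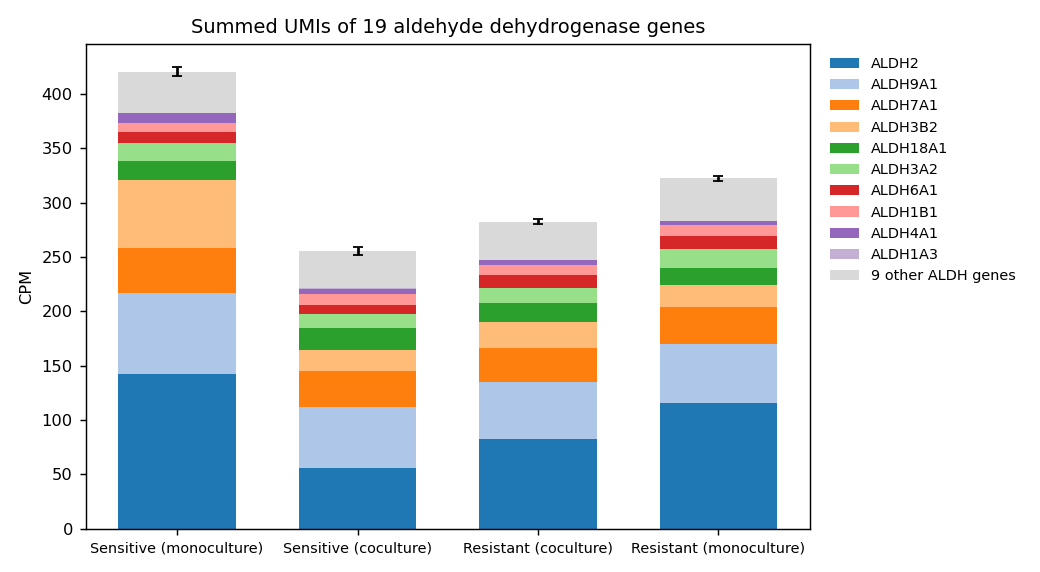
Summed CPM (y axis, from 0) of the 19 aldehyde dehydrogenase genes in the 4 populations (x axis), stacked by member with the 9 other genes in grey; error bars are 95% Poisson intervals of the sum. The sum is 421 CPM in sensitive monoculture and 256 CPM in cocultured sensitive cells.

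By phase of the deposited annotation, ALDH2 was highest in G1 cells of every population. In sensitive monoculture it stood at 147 CPM in G1, 115 CPM in S and 105 CPM in G2M cells, and in cocultured sensitive cells at 62.1, 51.6 and 48.9 CPM. Cocultured resistant cells had 92.1, 76.6 and 73.0 CPM, and resistant monoculture 123, 110 and 106 CPM. Every phase of sensitive monoculture lay above every phase of cocultured sensitive cells. The intervals of the monocultures overlapped in S cells, where resistant monoculture was still the lower. They also overlapped in G2M cells, where the monocultures were nearly level.

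ALDH3B2 differed more by phase than ALDH2. It stood at 67.1 CPM in G1, 40.7 CPM in S and 31.9 CPM in G2M cells of sensitive monoculture, and at 24.6, 17.0 and 11.0 CPM in cocultured sensitive cells. Its log2 ratio of G2M over G1 cells was -1.05 and -1.09 in these populations, where 1.52% and 0.438% of all genes were lower by 2-fold. It was -0.94 in cocultured resistant cells and -0.89 in resistant monoculture. ALDH4A1 in G1, S and G2M cells of sensitive monoculture stood at 9.81, 6.50 and 4.92 CPM, while ALDH1B1 stood at 7.75, 9.83 and 10.3 CPM, a ratio of G2M over G1 cells of 1.33 (1.02 to 1.70). The share of G1 cells was, like ALDH3B2 and ALDH4A1, highest in sensitive monoculture. In G1 cells alone the ratio of cocultured to monocultured sensitive cells was 0.366 for ALDH3B2 (0.341 to 0.393) and 0.528 for ALDH4A1 (0.449 to 0.619).

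**Figure D4:**
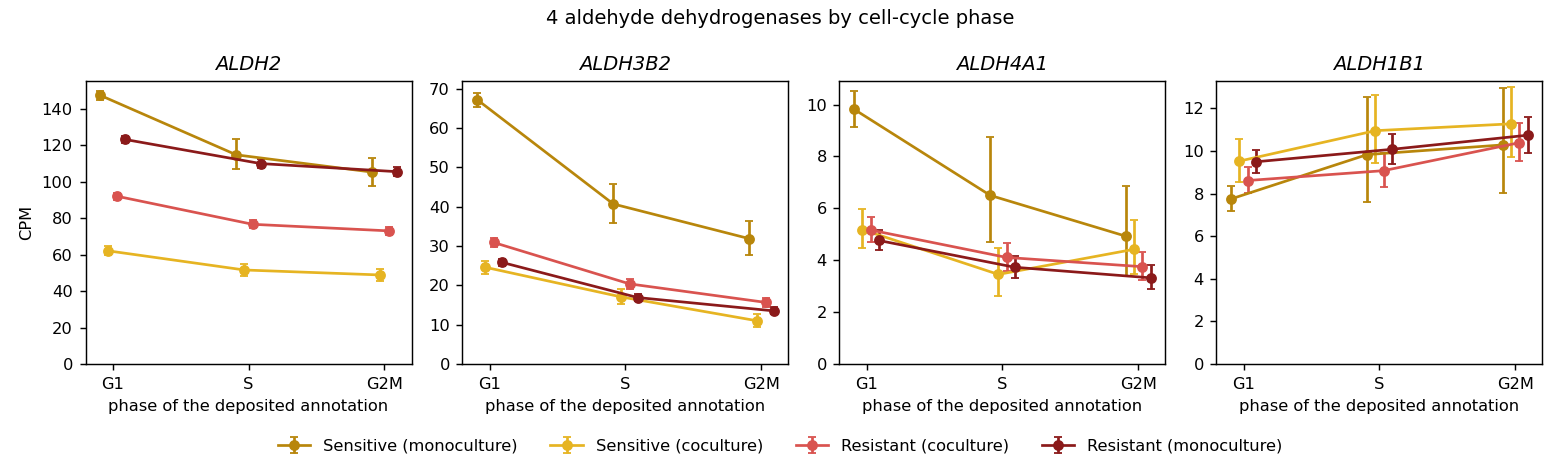
Levels of ALDH2, ALDH3B2, ALDH4A1 and ALDH1B1 in CPM (y axis, from 0) in cells annotated as G1, S and G2M (x axis), with 1 line per population and 95% Poisson intervals. The ALDH2 lines keep apart for cocultured sensitive cells (62.1 CPM in G1), cocultured resistant cells (92.1 CPM) and the monocultures, and the ALDH3B2 line of sensitive monoculture falls from 67.1 to 31.9 CPM.

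Within clusters of the deposited annotation, which were built from the same cells, ALDH2 was lower in coculture throughout. Clusters with at least 50 cells in both cultures numbered 3 for sensitive and 9 for resistant cells, and the clusters of 1 lineage share their libraries, so they are not replicates. Both lineages also share the coculture library. In sensitive cells the coculture and monoculture levels of ALDH2 were 56.2 and 88.9 CPM in cluster 3, 96.5 and 152 CPM in cluster 4, and 49.1 and 104 CPM in cluster 7. The ratios ran from 0.472 to 0.635 in sensitive cells. In resistant cells they ran from 0.618 to 0.797, with the counting interval below 1 in 9 of 9 clusters. Over all resistant cells the interval lay below 1 for 27.2% of all genes, and within clusters this share was not computed. The median log2 ratio of all genes lay between -0.06 and -0.04 in the sensitive and between 0.00 and 0.04 in the resistant clusters. Cluster 0, the largest of resistant cells, had 97.6 CPM in coculture and 131 CPM in monoculture.

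ALDH3B2 was also lower in coculture in the 3 sensitive clusters, but not in resistant cells. In cluster 4, which held 84 cocultured and 1945 monocultured sensitive cells, it stood at 57.1 and 70.5 CPM, a ratio of 0.809 (0.680 to 0.957), while ALDH2 had a ratio of 0.635 there (0.557 to 0.722). In clusters 3 and 7 the ALDH3B2 ratios were 0.654 and 0.395. In resistant cells the ALDH3B2 ratio lay above 1 in 8 of 9 clusters, with the interval above 1 in 7. ALDH7A1 was lower in coculture in 3 of 3 sensitive and 7 of 9 resistant clusters, with the interval below 1 in 2 and 6 of them. ALDH9A1 was lower in coculture in 3 of 3 sensitive clusters (0.722 to 0.840), and in 0 of 9 resistant clusters did its interval lie below 1. ALDH18A1 was higher in coculture in 3 of 3 sensitive and 9 of 9 resistant clusters, with the interval above 1 in 1 and 3 of them.

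All 4 of ALDH2, ALDH3B2, ALDH4A1 and ALDH1B1 differed less within each sensitive cluster than over all sensitive cells. In cluster 7 the log2 ratios of ALDH2 and ALDH3B2 were -1.07 and -1.27. In cluster 3 they were -0.65 and -0.59, and in cluster 4 -0.65 and -0.30. The share of all genes past 2-fold, or with an interval above or below 1, was not computed within a cluster. The cells of the cultures lay in different clusters, with 58.4% of sensitive monoculture but 4.08% of cocultured sensitive cells in cluster 4, and 8.02% and 52.8% in cluster 3. ALDH4A1 had ratios of 1.09 (0.755 to 1.60), 0.778 (0.465 to 1.23) and 0.723 (0.502 to 1.05) in sensitive clusters 3, 4 and 7, so that its interval lay below 1 in 0 of 3 clusters. For ALDH1B1 the ratios were 0.891 (0.711 to 1.13), 0.910 (0.543 to 1.44) and 1.07 (0.837 to 1.37), with no interval above 1 and 2 of 3 ratios in the direction opposite to that over all cells. For ALDH3A2 the ratios were 0.888 (0.720 to 1.10), 0.746 (0.504 to 1.07) and 0.959 (0.775 to 1.19), with the interval below 1 in 0 of 3 sensitive clusters, while it lay below 1 in 5 of 9 resistant clusters.

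Clusters 8 and 12 reached 50 cells in sensitive monoculture and in no other population. Cluster 12, with 156 cells, had the highest ALDH2 level of any cluster at 193 CPM, and ALDH6A1 at 22.1 CPM beside 7.60 to 10.1 CPM in the other sensitive monoculture clusters. ALDH7A1 was at 27.0 CPM there, against 40.1 to 42.0 CPM in the others. Cluster 8, with 681 cells, had the lowest ALDH1B1 level of the sensitive clusters at 4.06 CPM. Since the clusters were drawn from these cells' own genes, these levels are descriptions.

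**Figure D5:**
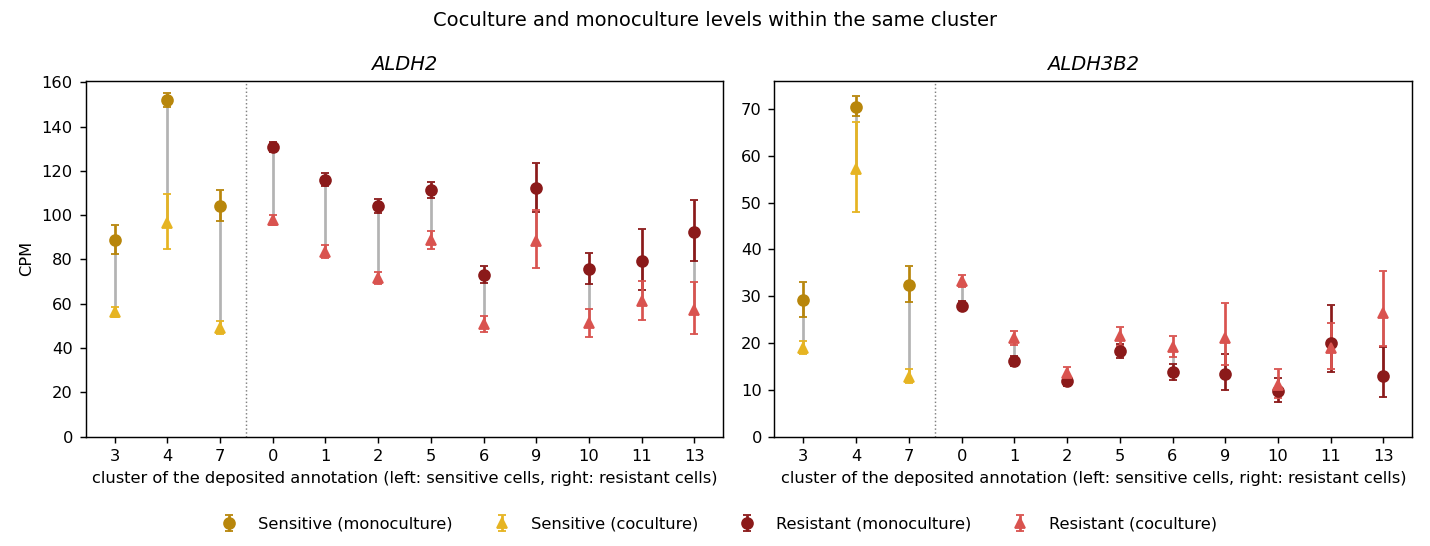
Levels of ALDH2 and ALDH3B2 in CPM (y axis, from 0) in coculture (triangles) and monoculture (circles) cells of the same cluster (x axis, sensitive cells left of the dotted line, resistant cells right), with 95% Poisson intervals. ALDH2 is lower in coculture in 3 of 3 sensitive and 9 of 9 resistant clusters, and ALDH3B2 is higher in coculture in 8 of 9 resistant clusters.

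Of the 9 other family genes, ALDH16A1 and ALDH5A1 were well measured. ALDH16A1, a member without known catalytic activity in mammals, stood at 22.2, 18.1, 19.8 and 24.7 CPM in sensitive monoculture, cocultured sensitive cells, cocultured resistant cells and resistant monoculture, and was lower in coculture in both lineages (0.814 and 0.802 of the monoculture level). ALDH5A1, which oxidises succinate semialdehyde from GABA, stood at 14.8, 14.4, 13.2 and 12.7 CPM. ALDH1L1, a cytosolic folate enzyme, was low but went against ALDH2, with 47, 105, 297 and 192 UMIs, or 0.488, 1.48, 1.49 and 0.709 CPM. Its coculture level was 3.03 times the monoculture level in sensitive cells (2.13 to 4.37) and 2.10 times in resistant cells (1.74 to 2.53). On log2(CPM + 1), the measure used for the members, ALDH1L1 was not past 2-fold in either comparison. ALDH1A2, ALDH1L2, ALDH3A1, ALDH3B1 and ALDH8A1 were each below 0.5 CPM in every population. ALDH1A1, a main source of ALDEFLUOR activity in many tissues, had 0 UMIs in either sensitive population, which allows up to 0.0312 CPM in monoculture and 0.0423 CPM in coculture (3 counts), and 1 UMI in each resistant population.

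Other enzymes that make or remove aldehydes were looked at as a list of 23 genes. In the comparison of the monocultures, 3 of the 10 with enough UMIs were past 2-fold and all were lower in resistant cells, a direction and size reached by 4.11% of all genes. CBR1, a carbonyl reductase, stood at 26.5 CPM in resistant and 62.4 CPM in sensitive monoculture (log2 ratio -1.204). CBR3, its neighbour, stood at 5.89 and 13.4 CPM (-1.06), and GSTA4, a glutathione transferase for 4-hydroxynonenal, at 5.25 and 11.6 CPM (-1.02). Within the coculture library CBR1 was at 33.8 CPM in resistant and 73.7 CPM in sensitive cells (-1.1), and CBR3 at 5.97 and 16.8 CPM (-1.35), 2 of 8 genes with enough UMIs where 1.30% of all genes were lower by that rule. CBR1 and CBR3 thus separated the lineages in both cultures, whereas ALDH2 had opposite directions in these comparisons. In the 2 comparisons of coculture with monoculture, 0 of 9 genes were past 2-fold. Of all genes, 1.04% were lower and 1.53% higher by that rule in sensitive cells, and 0% and 0.038% in resistant cells. In the lists of branched-chain amino acid and lysine catabolism, fatty aldehyde and sphingolipid breakdown, and carnitine and choline metabolism, 0 genes were past 2-fold in any comparison. Over the 4 comparisons 0% to 4.11% of all genes were lower and 0.038% to 2.17% higher by that rule. The median log2 ratios of these 3 lists between cocultured and monocultured sensitive cells were -0.07 over 23 genes, -0.23 over 11 and 0.07 over 7. The median of all genes there was -0.05.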

How the data were processed

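Single-cell RNA of 3 CAMA-1 libraries, 1 per condition, was analysed. The authors aligned reads and counted UMIs with Cell Ranger 3.0.2 (per the labels' processing notes) on GRCh37. They deposited raw counts per gene and barcode, without normalization, with an annotation of kept cells giving each cell's UMI and gene counts, phase, cluster and population, and its percent of mitochondrial UMIs. Unnamed rows, which held 0.523% to 0.591% of the UMIs, did not enter totals. Libraries held 173405094, 519475237 and 359599734 UMIs over all barcodes. Totals per cell differed from the deposited ones by at most 6 UMIs.

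UMIs of annotated cells were summed by population, phase and cluster and expressed as CPM. Ratios of CPM carry no pseudocount, and log2 ratios used a pseudocount of 1 CPM. Genes with at least 50 UMIs over both populations were counted as tested. Intervals (95%) are exact Poisson for sums and exact (Clopper-Pearson) binomial for shares and ratios, and cover counting error only. No p-value was computed, since cells are not replicates. Thinning drew 5000 UMIs per cell without replacement. Phases and clusters were taken as deposited. By the study's methods the authors had taken out predicted doublets, and no doublet caller was run here.

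The genes named were the 10 members, the other 9 family genes, list genes past 2-fold (at most 4 per list) and the 5 genes most like ALDH2 and ALDH1A3, of which 1 is not reported here. PRODH and PYCR1 were added after their values were seen. The members and lists were chosen with earlier results of these data known. Positions are from GENCODE lifted to GRCh37. Ratios were tested on simulated data. Those data were independent Poisson counts without a difference between libraries, so they do not cover the spread between libraries. Alternatives covered pseudocounts, scaling (TMM, edgeR 4.0.16, R 4.3.3), G1 cells, transgene thresholds, resistant-cell RNA, UMI minimums and the fold. Other steps used Python 3.11.15, numpy 2.4.6, scipy 1.17.1 and pandas 2.3.3.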

Additional observations from a re-analysis of the deposited data

Results flagged for a closer look

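Opposite signs of the coculture difference in the lineages were flagged for 3 members, with 1 library per condition, and the difference between lineages was not tested. ALDH4A1 (log2 ratios -0.87 in sensitive and 0.10 in resistant cells) and ALDH6A1 (-0.14 and 0.01) also had opposite signs and were not flagged. ALDH3B2 had a log2 ratio of coculture over monoculture of -1.64 in sensitive cells and 0.23 in resistant cells. For ALDH1B1 the values were 0.31 and -0.10, but within clusters its ratio was below 1 in 2 of 3 sensitive and 7 of 9 resistant clusters. ALDH1A3 had -0.29 and 0.14, from 28 and 68 UMIs in sensitive and 44 and 29 UMIs in resistant cells.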

How the results depend on the processing

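The members' log2 ratios were recomputed under 10 alternatives that could change them, and 294 of 362 values stayed within the counting interval of the reported one. No called value changed sign. ALDH2 between cocultured and monocultured sensitive cells ranged from -1.49 to -1.20 and ALDH3B2 from -1.70 to -1.30, with 2 members past 2-fold, both lower, under each alternative that kept that fold and 3 at a fold of 1.5. Of all genes, 1.04% were lower by that rule as reported, 2.34% with a pseudocount of 0.1 CPM and 5.91% at a fold of 1.5. ALDH6A1 in resistant cells, at 0.01, changed sign under 2 alternatives (-0.06 to 0.12). Between the monocultures, members past 2-fold rose from 1 to 2 with the total without mitochondrial genes, with cells of at least 2 transgene UMIs, with the mean of per-cell CPM and with cells of 20000 to 40000 UMIs (a choice made after seeing the data), and to 3 with a pseudocount of 0.1 CPM or a fold of 1.5. The share of all genes lower between the monocultures, 4.11% as reported, was 5.02%, 4.26%, 4.49% and 4.48% under the first 4 of these, 7.29% with the pseudocount of 0.1 CPM and 12.5% at a fold of 1.5. The members' median there was -0.15 with a pseudocount of 10 CPM, -0.17 with TMM factors, -0.36 without mitochondrial genes and -0.24 with at least 2 transgene UMIs. The median of all genes, -0.07 as reported, was 0.02 with TMM factors and -0.13 without mitochondrial genes, so the members' median lay 0.21 below it as reported and 0.19 and 0.22 below it under these scalings. In sensitive cells it was -0.24 with a pseudocount of 10 CPM, and in resistant cells -0.088 with TMM factors and -0.097 with at least 2 transgene UMIs. The cause of these moves was not tested. No paired analysis was possible because each condition had 1 library. Depth limits ALDH1A3 and the family genes below 1 CPM.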

Other observations

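Over 12 sums (4 populations by 3 phases), the gene most like ALDH2 among the 2330 genes averaging 50 CPM or more was ECI2, an enoyl-CoA isomerase of fatty acid oxidation (Pearson r of log2(CPM + 1) 0.984). ECI2 stood at 118, 81.4, 91.1 and 107 CPM in sensitive monoculture, cocultured sensitive cells, cocultured resistant cells and resistant monoculture, the same order as ALDH2 over a narrower range. COMMD7 (0.975), NUCB2 (0.968), FLYWCH2 (0.954) and MFSD10 (0.954) came next. For ALDH1A3, among the 4685 genes averaging 20 CPM or more, the most alike were DYNLT3 (0.910), TMEM99 (0.894), CNOT2 (0.833) and MEAF6 (0.829), beside ALDH1A3 sums of very few UMIs. The 12 sums share 3 libraries, so these values are descriptions.

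Among the members, the pairs most alike over these sums were ALDH7A1 with ALDH9A1 (r 0.899) and ALDH3B2 with ALDH4A1 (r 0.898). The least alike were ALDH3A2 with ALDH18A1 (-0.854) and ALDH1B1 with ALDH3B2 (-0.806). ALDH2, ALDH3A2, ALDH7A1 and ALDH9A1 were lower in coculture in each lineage. Of these, ALDH2 had an r of 0.734 with ALDH3A2, 0.533 with ALDH7A1 and 0.447 with ALDH9A1.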
